A study of Mus musculus with 6 samples.

Results

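Monocytes reach the infarcted heart from the blood and turn into macrophages there, and part of their transcript programme is still found in the macrophage fraction of a healing infarct. A set of 8 monocyte marker genes was followed in RNA-seq libraries of cardiac macrophages. The set holds 6 markers of classical monocytes (Ly6c2, Ly6c1, Plac8, Hp, Ms4a4c and Ifitm6) and 2 markers of nonclassical monocytes (Ace and Spn). The members were taken by gene name from the 54532 genes of the count table, and each name matched 1 gene. All 8 passed the filter on low counts, as did 14522 genes in all.

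The series held 6 libraries, 3 from ITGA5 fl/fl mice and 3 from Myα5KO mice. ITGA5 fl/fl mice, the controls, carry floxed, intact copies of the gene of the α5 integrin chain and no Cre. Myα5KO mice carry the same floxed gene together with LyzM-Cre, whose recombinase is driven by the lysozyme M gene (Lyz2) and is active in monocytes, macrophages and neutrophils. All mice were 12 weeks old, on the C57BL/6 strain, and had 7 days of permanent occlusion of the left anterior descending coronary artery. The cells were the Ly6G- CD11b+ fraction of infarcted hearts, retained on magnetic columns after removal of Ly6G+ neutrophils. CD11b is carried by monocytes as well as macrophages, so the fraction can hold both. Per the study's methods, tissue of individual mice was digested, and the sex of each animal is not given in the sources used here. No library of LyzM-Cre mice without the floxed gene was analysed, so the effects of Cre and of Itga5 loss cannot be told apart. No uninfarcted heart and no other time point was analysed here.

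Classical mouse monocytes carry the surface antigen Ly6C, leave the bone marrow through the chemokine receptor CCR2 and enter injured tissue early. Nonclassical monocytes have low Ly6C, depend on the nuclear receptor NR4A1 and patrol the walls of vessels. As monocytes mature into macrophages, Ly6c2 and several of the other classical transcripts are known to decline, whereas macrophage transcripts such as C1qa and Adgre1 rise.

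Total counts per library lay between 15424451 and 18419287. As a check of the labels, Itga5 was 607 ± 43.2 CPM (counts scaled to a common library size) in controls and 48.7 ± 1.48 CPM in Myα5KO libraries (SD, n = 3 each). Lyz2, whose locus carries the Cre insertion, was 7315 ± 287 CPM and 3874 ± 254 CPM. The summed level of 10 macrophage markers was 13610 to 13830 CPM in controls and 12840 to 13340 CPM in Myα5KO libraries, so all 6 libraries carried the macrophage identity that the labels give. The whole group of 6 classical markers summed to 113, 156 and 160 CPM in controls and to 207, 192 and 197 CPM in Myα5KO libraries. These 6 markers were thus a small part of the counts. The 19 further classical monocyte genes described below summed to 20250 to 21410 CPM in controls and 13080 to 14750 CPM in Myα5KO libraries. Lyz2, Thbs1 and Cd14 had the highest levels of that list and made up most of its sum. Their means were 7315, 6271 and 4755 CPM in controls and 3874, 4100 and 3489 CPM in Myα5KO libraries. Of the 19 estimates, 9 were positive and 10 negative. Such sums depend on the genes listed and do not measure the share of monocyte RNA.

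Expression of 3 of the 8 monocyte markers was higher in Myα5KO macrophages, and none was lower. The classical markers Ly6c2 and Ms4a4c and the nonclassical marker Spn passed the test, with increases of 1.64-fold, 1.5-fold and 1.41-fold. Plac8, Ace, Ly6c1, Hp and Ifitm6 did not pass it. A gene passed, or was called, at an adjusted p of 0.05 or less in edgeR, and a positive log2 fold change means a higher level in Myα5KO. Over all 14522 tested genes, 8.75% were called changed, 3.56% higher and 5.19% lower. The 8 members were chosen with earlier results of these data known. The median log2 fold change of the 8 members was 0.40, beside 0.01 over all tested genes, and 8 of 8 estimates were positive. In bulk libraries, more monocytes in the fraction and more monocyte RNA per cell cannot be told apart.

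Ly6c2 (ENSMUSG00000022584, GRCm38 chr15:75108158-75111970, minus strand, protein coding) encodes one of the paired Ly6C proteins, small antigens anchored to the membrane by a lipid. Its level was 12.6, 17.0 and 17.2 CPM in ITGA5 fl/fl libraries 1 to 3 and 26.3, 24.7 and 25.9 CPM in Myα5KO libraries 1 to 3. Every Myα5KO library lay above every control, and the Myα5KO libraries were close together. Mean levels were 15.6 ± 2.62 and 25.6 ± 0.816 CPM (SD, n = 3 each). Its log2 fold change was 0.71 ± 0.11 (SE), with an adjusted p of 0.00225 in the quasi-likelihood test of edgeR.

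Ly6c1 (ENSMUSG00000079018, chr15:75044018-75048830, minus strand, protein coding) encodes the other Ly6C protein and is also known to be expressed by endothelial cells. Its level was 17.6, 20.6 and 17.4 CPM in controls and 19.0, 22.8 and 27.1 CPM in Myα5KO libraries. The groups overlapped, since Myα5KO library 1 lay below ITGA5 fl/fl library 2. The log2 fold change was 0.31 ± 0.13 (SE, 95% interval 0.04 to 0.58, edgeR adjusted p = 0.152). Without Myα5KO replicate 1 it was 0.43 and passed the test (edgeR adjusted p = 0.0357), and without Myα5KO replicate 3 it was 0.17 (edgeR adjusted p = 0.413).

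The Ly6c genes lie on the same strand, 59327 bases apart, with no other protein-coding gene annotated between them. The ratio of Ly6c2 to Ly6c1 CPM was 0.715, 0.829 and 0.993 in controls and 1.39, 1.08 and 0.955 in Myα5KO libraries. The groups overlapped, and the difference of 0.43 on the log2 scale gave p = 0.2 (exact permutation test, two-sided). With 3 against 3 libraries, p cannot fall under 0.1. A different response of the pair was therefore not shown. Transcripts of both genes are similar, and the handling of reads with several alignments is not given in the sources used here. Of the 50-base words in Ly6c1 transcripts, 32.8% also occur in another gene, and 21.5% occur in Ly6c2. Of the 50-base words in Ly6c2 transcripts, 14.4% occur elsewhere. At 150 bases, the length of 1 read, the shares fell to 2.29% and 1.42%. These shares do not measure miscounted reads, so how far the counts of both genes are uncertain is not known.

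The sequences before the start sites of the pair are printed because both genes define the same antigen, although a different response was not shown. Each run holds the 250 bases before the start site in the RefSeq promoter table (GRCm38.p6), 5′ to 3′ on the minus strand, at chr15:75111972-75112221 for Ly6c2 and at chr15:75048838-75049087 for Ly6c1. Capitals mark GAGGAAGT, a core of the site bound by PU.1, a transcription factor of the myeloid lineage.
Ly6c2: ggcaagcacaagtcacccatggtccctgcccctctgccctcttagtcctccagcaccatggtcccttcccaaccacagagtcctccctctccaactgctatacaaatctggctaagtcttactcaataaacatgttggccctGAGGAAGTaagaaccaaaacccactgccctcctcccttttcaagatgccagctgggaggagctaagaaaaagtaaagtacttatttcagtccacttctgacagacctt
Ly6c1: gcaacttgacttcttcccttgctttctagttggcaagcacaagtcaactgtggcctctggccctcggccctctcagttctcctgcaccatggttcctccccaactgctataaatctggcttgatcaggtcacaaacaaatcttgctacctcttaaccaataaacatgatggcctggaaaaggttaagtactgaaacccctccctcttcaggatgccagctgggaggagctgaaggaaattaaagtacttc

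A global alignment of these 250 bases gave 171 identical positions, or 68.4%. The Ly6c2 window of 250 bases before and 50 after the start site held the PU.1 letters at positions -108 and 27 counted from the start site. The Ly6c1 window did not hold them. Whether this bears on the levels of the pair was not tested. Only 1 promoter window per gene was searched, for the members the one nearest the deposited 5′ end. Another window of Ly6c2, Ly6c1, Plac8 and Ace was not searched. The PU.1 letters were found in 3.27% of the 27025 searched windows, on either strand. Windows were available for 7 of the 8 members. The letters GAAANNGAA (a core of the interferon-stimulated response element), TTGCNNAA (C/EBP), AAAGGTCA (NR4A) and TGANTCA (AP-1) were in no searched window of these 7 members. They were in 8.56%, 10.7%, 1.46% and 7.87% of all searched windows, in that order. TTCNNNGAA, the STAT site known as GAS, was in the Ifitm6 window at position -10 and in 8.37% of all windows. GGGTGTGG, a site of Krüppel-like factors, was in the Plac8 window on the opposite strand at position -200 and in 3.59% of all windows. No matches in the member windows overlapped each other. The Ms4a4c and Ifitm6 start sites in the table lie 2891 and 1032 bases from the deposited 5′ end of the gene, so those windows may not be the promoters used in these cells.

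Plac8 (ENSMUSG00000029322, chr5:100553725-100572245, minus strand, protein coding) encodes a small cysteine-rich protein of monocytes and other leukocytes. Its level was 27.2, 40.6 and 49.1 CPM in controls and 59.9, 52.0 and 52.0 CPM in Myα5KO libraries. The groups did not overlap, but the controls were widely spread, with a coefficient of variation of 28.3% against 8.33% in Myα5KO. The estimated log2 fold change was 0.48 ± 0.15 (SE, 95% interval 0.16 to 0.80, edgeR adjusted p = 0.0630). Once ITGA5 fl/fl replicate 3 was left out, the control with the highest level, the log2 fold change was 0.68 and passed the test (edgeR adjusted p = 0.0194). Once ITGA5 fl/fl replicate 1 was left out, the control with the lowest level, it was 0.28 (edgeR adjusted p = 0.113).

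Hp (ENSMUSG00000031722, chr8:109575128-109579172, minus strand, protein coding) encodes haptoglobin, which binds free haemoglobin. Its level was 18.6, 27.1 and 26.9 CPM in controls and 32.4, 26.9 and 31.0 CPM in Myα5KO libraries. ITGA5 fl/fl replicate 1 was low, and the other 2 controls overlapped with Myα5KO library 2. The log2 fold change was 0.31 ± 0.13 (SE, 95% interval 0.04 to 0.58, edgeR adjusted p = 0.159). It ranged from 0.16 without ITGA5 fl/fl replicate 1 to 0.40 without ITGA5 fl/fl replicate 2, and none of these fits passed the test.

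Ms4a4c (ENSMUSG00000024675, chr19:11404770-11427246, plus strand, protein coding) encodes a membrane-spanning protein of the MS4A family. Its level was 32.0, 41.4 and 37.0 CPM in controls and 58.9, 57.0 and 49.8 CPM in Myα5KO libraries. Every Myα5KO library lay above every control. Mean levels were 36.8 ± 4.69 and 55.2 ± 4.81 CPM (SD, n = 3 each), and the log2 fold change was 0.58 ± 0.10 (SE, edgeR adjusted p = 0.00261). Of its 50-base words, 8.19% also occur in Ms4a4b or Ms4a4d, and no 150-base word does. Ms4a4b had at most 3.62 CPM and Ms4a4d at most 1.08 CPM in any library.

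Ifitm6 (ENSMUSG00000059108, chr7:141015699-141017924, minus strand, protein coding) belongs to the interferon-induced transmembrane proteins. Its level was 5.23, 9.46 and 12.7 CPM in controls and 10.6, 8.83 and 11.5 CPM in Myα5KO libraries. The controls enclosed all Myα5KO libraries, and their coefficient of variation of 41.0% was the highest among the members. The log2 fold change was 0.16 ± 0.23 (SE, 95% interval -0.32 to 0.65, edgeR adjusted p = 0.717). Its sign rested on ITGA5 fl/fl replicate 1, since it was -0.10 without that library. The counts behind this gene were also the lowest of the set, at 78 to 223 per library.

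Of the nonclassical markers, Spn (ENSMUSG00000051457, chr7:127132232-127137823, minus strand, protein coding) encodes CD43, a sialic acid-rich glycoprotein of the leukocyte surface that is also present on T cells. Its level was 61.5, 59.4 and 49.0 CPM in controls and 76.1, 80.9 and 82.2 CPM in Myα5KO libraries. Every Myα5KO library lay above every control. Mean levels were 56.7 ± 6.71 and 79.8 ± 3.21 CPM (SD, n = 3 each), and the log2 fold change was 0.49 ± 0.08 (SE, edgeR adjusted p = 0.00306).

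Ace (ENSMUSG00000020681, chr11:105967945-105989964, plus strand, protein coding) encodes angiotensin-converting enzyme, a peptidase that is also found on endothelial cells. Its level was 35.7, 34.1 and 35.2 CPM in controls and 38.8, 41.4 and 46.9 CPM in Myα5KO libraries. The groups did not overlap, and the controls were nearly equal. For Ace the log2 fold change was 0.28 ± 0.08 (SE, 95% interval 0.10 to 0.45), and the edgeR adjusted p of 0.0528 was just past the threshold of 0.05. Without Myα5KO replicate 1 it was 0.33 and passed the test (edgeR adjusted p = 0.0300). Genes that overlap Ace and Ms4a4c in the deposited annotation had 1 count each over the 6 libraries.

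**Figure D1:**
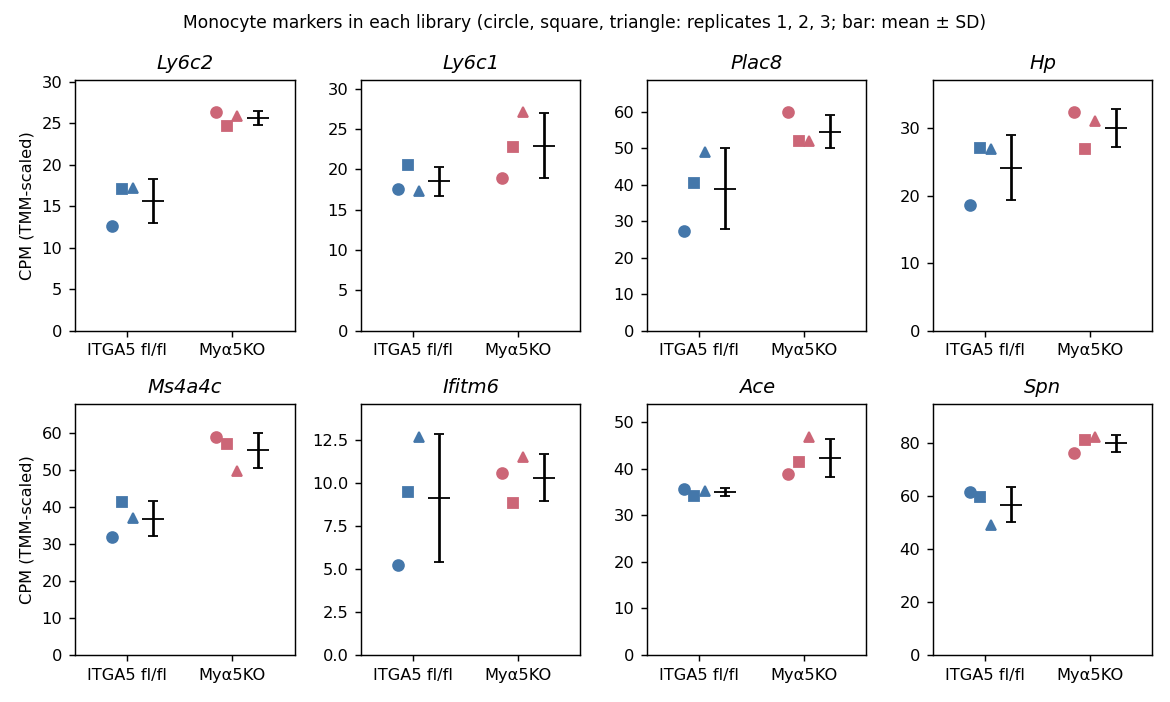
The level of each of the 8 markers in CPM (scaled with TMM factors; each axis starts at 0) is plotted for 3 ITGA5 fl/fl and 3 Myα5KO libraries, with bars for the mean ± SD. The Myα5KO libraries lay above all controls for Ly6c2, Plac8, Ms4a4c, Ace and Spn, and overlapped with them for Ly6c1, Hp and Ifitm6.

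Without overlap, Myα5KO libraries lay above the controls for 5 of the 8 members, and below them for none. Among all tested genes, 14.9% had all Myα5KO libraries above and 13.8% had them all below. The estimates and their intervals are set side by side in the plot of fold changes. Ly6c2, Ms4a4c and Spn passed the test with any 1 library left out, with log2 fold changes of 0.58 to 0.78, 0.50 to 0.68 and 0.40 to 0.56. With 1 library left out, 3 to 5 members were called, and the count of 5 arose without Myα5KO replicate 1, where 2.83% of genes were called higher.

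**Figure D2:**
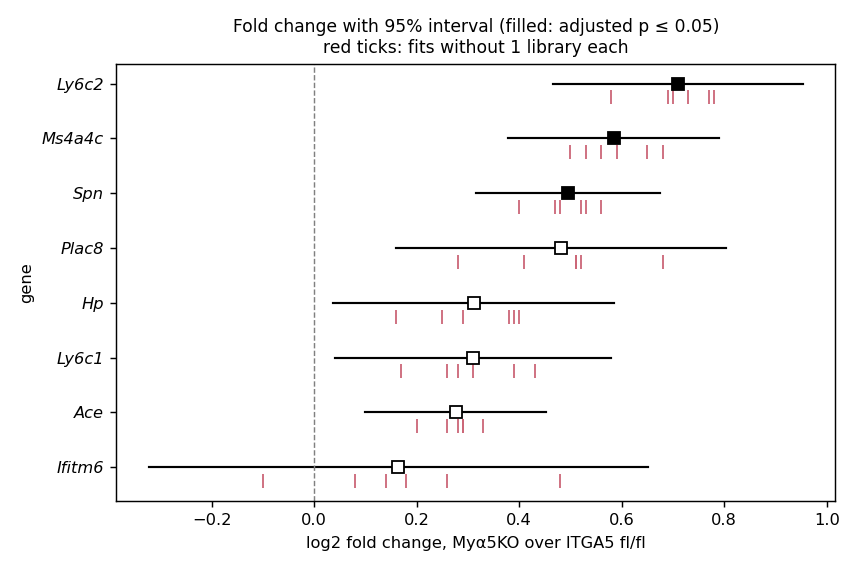
Squares give the log2 fold change of each marker, Myα5KO over ITGA5 fl/fl, with its 95% interval, and filled squares passed the edgeR test at an adjusted p of 0.05 or less. Red ticks give the estimate with 1 library left out. The ticks of Ly6c2, Ms4a4c and Spn stayed at 0.40 or above, and those of Ifitm6 reached -0.10.

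The markers differed in which control was lowest. ITGA5 fl/fl replicate 1 was the lowest control for 5 members, all of them classical (Ly6c2, Plac8, Hp, Ms4a4c and Ifitm6). The same library was the lowest control for 35.9% of all tested genes. Relative to the control mean, its level was -0.80 for Ifitm6, -0.52 for Plac8 and -0.38 for Hp on the log2 scale. In the same library Ly6c1 was at -0.07, Ace at 0.03 and Spn at 0.12. Among Myα5KO libraries, replicate 3 was the highest for Ly6c1, Ifitm6, Ace and Spn, and replicate 1 was the highest for Ly6c2, Plac8, Hp and Ms4a4c. These patterns are descriptions over 6 libraries and were not tested.

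**Figure D3:**
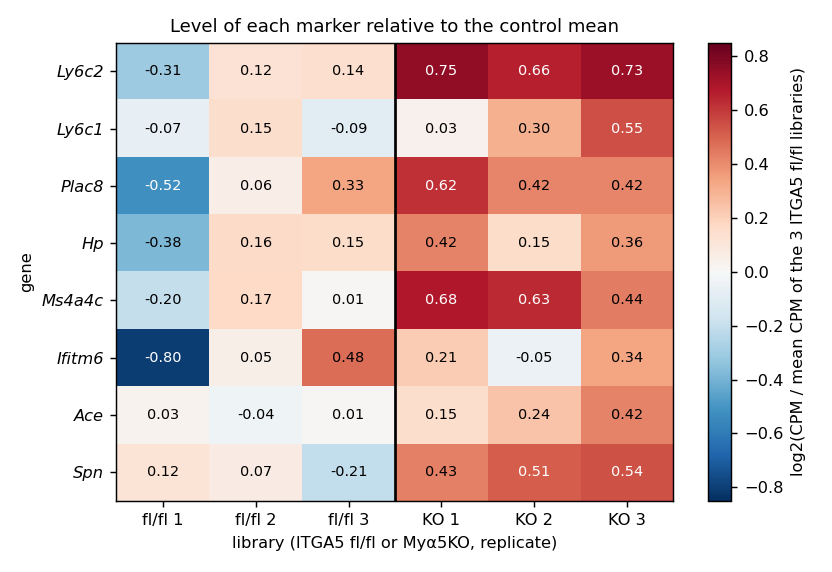
Each cell gives log2 of the CPM of a marker in 1 library over the mean CPM of the 3 ITGA5 fl/fl libraries, with red for higher and blue for lower levels. The column of ITGA5 fl/fl replicate 1 runs from -0.80 for Ifitm6 to -0.07 for Ly6c1 among the classical markers and holds 0.03 for Ace and 0.12 for Spn, and the Myα5KO columns are red apart from Ifitm6 in replicate 2 at -0.05.

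Levels were compared between genes per length, as FPKM (fragments normalised for gene length and depth) from the deposited values. In ITGA5 fl/fl libraries the order by mean level was Plac8 (24.4 FPKM), Ms4a4c (20.9 FPKM), Hp (14.99 FPKM), Spn (12.1 FPKM), Ly6c1 (11.0 FPKM), Ifitm6 (10.04 FPKM), Ace (6.59 FPKM) and Ly6c2 (5.68 FPKM). Most neighbours in this order overlapped over the 3 controls. Only Ms4a4c and Hp (18.2 to 23.4 against 11.5 to 16.7 FPKM) and Ace and Ly6c2 (6.39 to 6.73 against 4.59 to 6.28 FPKM) were separate. In Myα5KO libraries Ly6c2 (8.99 to 9.57 FPKM) lay above Ace (7.31 to 8.71 FPKM), so the lowest places were exchanged.

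Genes whose log2 CPM followed a member most closely over the 6 libraries were sought among 8119 genes with a mean of at least 10 CPM. With Ly6c2, these were Kat2a (Pearson's r = 0.998) and Skiv2l (0.994). With Ms4a4c they were Samhd1 (0.999), Zfp991 (0.996) and Irgm1 (0.994). With Spn they were Rassf5 (0.998), Irf8 (0.993) and Cdc20 (0.990). Samhd1 and Irgm1 are known interferon-inducible genes, and Irf8 is a transcription factor of monocyte development.

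For the members that did not pass the test, the leading genes were Bcl7b, Dnaja1 and Fzd5 with Ly6c1, Cmpk2, Acaa2 and Adck1 with Plac8, Nans, Mtfr1 and Vps33b with Hp, Psmc5, Lsm4 and Gosr1 with Ifitm6, and Snx5, Fam8a1 and Zscan26 with Ace. With 6 libraries in 2 groups and 8119 genes searched, such coefficients are high for any gene, and they describe likeness only.

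Other genes of the monocyte subsets did not move as one. Of 19 further classical genes, 4 were higher in Myα5KO (among them Fcnb, Ccr2 and Klf4), 4 were lower (Lyz2, Clec4d, Thbs1 and Cd14) and 11 were not called. Their median log2 fold change was -0.03. Ccr2, the receptor for CCL2, was 156, 190 and 158 CPM in controls and 234, 256 and 262 CPM in Myα5KO libraries, with no overlap (log2 fold change 0.58 ± 0.08 SE, edgeR adjusted p = 0.00111). Chil3, a secreted chitinase-like protein of classical monocytes, was 65.7, 93.4 and 63.4 CPM against 76.3, 71.8 and 65.4 CPM. For Chil3 the groups overlapped, and the log2 fold change was -0.06 ± 0.12 (SE, edgeR adjusted p = 0.811).

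Fcnb, a ficolin of immature myeloid cells, had the largest fold change of the classical list at few counts, 6 to 19 per ITGA5 fl/fl and 28 to 65 per Myα5KO library (log2 fold change 1.74 ± 0.40 SE, edgeR adjusted p = 0.0160). Klf4, a transcription factor of monocytes, changed by 0.40 on the log2 scale (edgeR adjusted p = 0.0333). Among the genes that were lower, the lectin receptor Clec4d had a log2 fold change of -0.63, the matricellular protein gene Thbs1 -0.61 and the endotoxin co-receptor gene Cd14 -0.45. Lyz2 had a log2 fold change of -0.92, and its locus carries the Cre insertion in Myα5KO mice. Ccr2, Lyz2, Clec4d and Cd14 passed the test with any 1 library left out. Klf4 was lost without ITGA5 fl/fl replicate 2 or 3 or Myα5KO replicate 2 or 3 (edgeR adjusted p of 0.0808 to 0.144). Fcnb was lost without ITGA5 fl/fl replicate 2 (0.0618) and Thbs1 without ITGA5 fl/fl replicate 3 (0.0663).

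Of 20 further nonclassical genes 19 were tested. Higher levels in Myα5KO were found for 5 (Adgre4, Cx3cr1, Nr4a1, Itgal and Pou2f2), a lower level for 1 (Tnfrsf1b), and 13 were not called, with a median log2 fold change of 0.08. Nr4a1, the nuclear receptor that nonclassical monocytes require, was 1091, 1056 and 946 CPM in controls and 1252, 1353 and 1523 CPM in Myα5KO libraries (log2 fold change 0.42 ± 0.09 SE, edgeR adjusted p = 0.00972). Cx3cr1, the fractalkine receptor of nonclassical monocytes and resident macrophages, was 275, 272 and 259 CPM against 354, 396 and 347 CPM (log2 fold change 0.44 ± 0.07 SE, edgeR adjusted p = 0.00219). Neither gene overlapped between the groups. The Cx3cr1 interval overlaps 9 other genes in the deposited annotation, among them Csrnp1 with 64295 counts over the 6 libraries beside 33940 for Cx3cr1, so its reads are uncertain.

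Adgre4, an adhesion receptor of monocytes and macrophages, was 12.5 ± 0.400 and 18.7 ± 1.6 CPM (SD, n = 3 each; log2 fold change 0.58, edgeR adjusted p = 0.00378). Itgal, the αL integrin chain, changed by 0.33 on the log2 scale (edgeR adjusted p = 0.00972), and Tnfrsf1b, a receptor of tumour necrosis factor, -0.60 (edgeR adjusted p = 0.00104). The transcription factor gene Pou2f2, named after its values were seen, changed by 0.28 on the log2 scale (edgeR adjusted p = 0.0253). Treml4, a receptor of nonclassical monocytes, was 8.98, 8.81 and 8.94 CPM in controls and 7.99, 9.47 and 8.78 CPM in Myα5KO libraries (log2 fold change -0.03 ± 0.12 SE, edgeR adjusted p = 0.923). The Treml4 groups overlapped, with nearly equal means. Adgre4, Cx3cr1 and Tnfrsf1b passed the test with any 1 library left out. Nr4a1 was lost when ITGA5 fl/fl replicate 3 was left out (edgeR adjusted p = 0.0606), Itgal without ITGA5 fl/fl replicate 2 (0.0571), and Pou2f2 without any control or Myα5KO replicate 1 (0.0662 to 0.101).

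**Figure D4:**
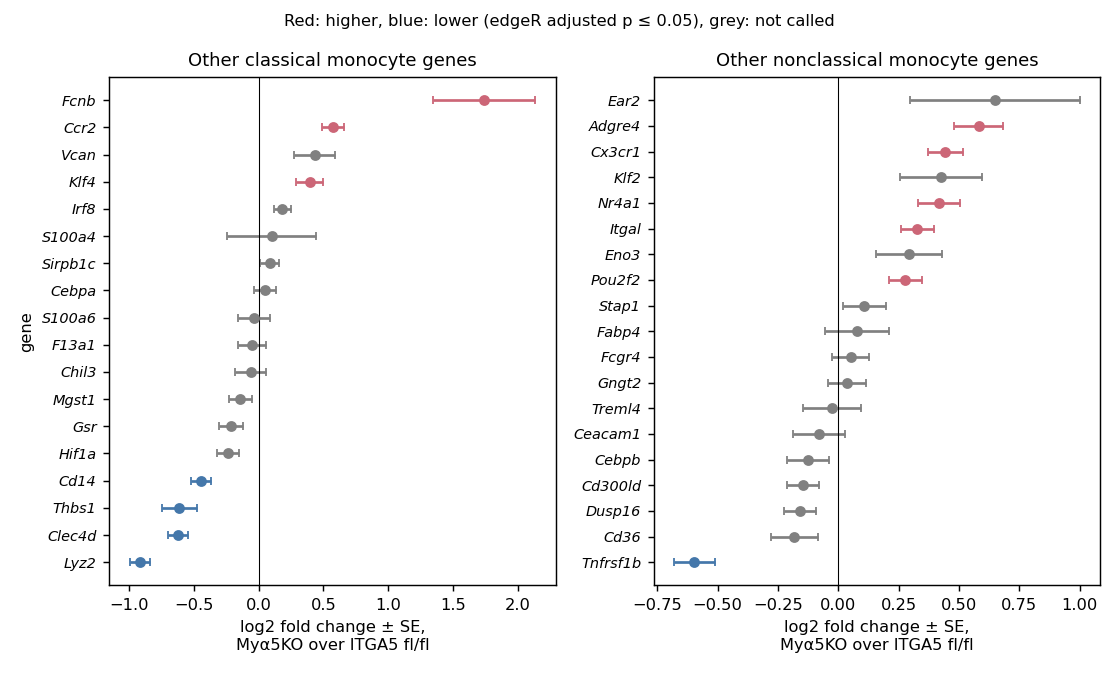
The log2 fold change ± SE is plotted for 18 other classical (left) and 19 other nonclassical (right) monocyte genes, Myα5KO over ITGA5 fl/fl, and the panels have separate scales. Called genes lie on both sides of 0 in the classical panel, from Fcnb at 1.74 to Lyz2 at -0.92, and the nonclassical panel has 5 genes called higher and 1 called lower.

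Relatives of the members gave different counts by family. In the Ly6 locus, 8 of 14 listed genes were tested, and their estimates were all positive. Between 1 and 3 were called with 1 library left out. Ly6c2 and Ly6a, which encodes the stem cell antigen Sca-1, were called higher (log2 fold change of Ly6a 0.36, edgeR adjusted p = 0.0379). Ly6a was lost without ITGA5 fl/fl replicate 1 or 3 or Myα5KO replicate 2 or 3 (edgeR adjusted p of 0.0719 to 0.108). In the Ifitm family, none of 6 tested genes was called by edgeR or DESeq2, and none was at an unadjusted p under 0.05. In the Ms4a family, 3 genes were higher and 1 was lower without ITGA5 fl/fl replicate 1. Without ITGA5 fl/fl replicate 2 or Myα5KO replicate 3, 3 were higher and none was lower. With all 6 libraries, 5 of 12 tested Ms4a genes were higher and none was lower. Beside Ms4a4c these were Ms4a6c (log2 fold change 0.42, edgeR adjusted p = 0.00512), Ms4a6b (0.37; 0.00373), Ms4a4a (0.32; 0.0421) and the progenitor gene Ms4a3 (2.03), which had 0 to 30 counts per library and was named after its values were seen. Ms4a4a was lost without ITGA5 fl/fl replicate 1 or 2 or Myα5KO replicate 2 or 3 (edgeR adjusted p of 0.0983 to 0.176).

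Markers of other programmes and cells moved in the same libraries. Of 20 interferon response genes, 15 were higher in Myα5KO and none was lower, among them Ifi44 (log2 fold change 0.73) and Oasl2 (0.60). Ifi44 was lost without ITGA5 fl/fl replicate 3 or Myα5KO replicate 2 (edgeR adjusted p of 0.0538 to 0.0597). Their summed level was 1258 to 1555 CPM in controls and 1760 to 1825 CPM in Myα5KO libraries, and ITGA5 fl/fl replicate 1 was the lowest. With 1 library left out, 9 to 15 of the interferon genes were called, with 9 without Myα5KO replicate 2 and 10 without ITGA5 fl/fl replicate 3. Ly6c2, Ly6c1, Ly6a, Ms4a4c and Ifitm6 are themselves known to respond to interferon. Of 14 tested granulocyte genes, 9 were higher, with a summed level of the list of 242 to 306 against 367 to 478 CPM. The leading genes were the granule protein genes Ltf (log2 fold change 2.05) and Camp (1.89). Ly6g, the antigen removed by the sort, had 0 to 2 counts per library and Cxcr2 had 7 to 8, so these transcripts were near the floor. Plac8, Hp and Ifitm6 are also transcribed in granulocytes. The part of the interferon and granulocyte lists in the results on the members was not tested.

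The summed level of 8 B cell markers was 72.5 to 114 CPM in controls and 115 to 187 CPM in Myα5KO libraries, and 3 of them were called higher (among them Ighd and Cd79b). Leaving out ITGA5 fl/fl replicate 1, ITGA5 fl/fl replicate 2 or Myα5KO replicate 1 left 0 of them called, 1 was called without Myα5KO replicate 3, and 6 were called without Myα5KO replicate 2. The 8 dendritic cell markers summed to 148 to 203 against 205 to 223 CPM, with 1 called higher (Cd209a). Both sums were higher in every Myα5KO library than in every control, by narrow margins. The closest values were 113.9 and 115.1 CPM for B cell and 202.5 and 205.3 CPM for dendritic cell markers. For the dendritic sum ITGA5 fl/fl replicate 1 was the highest control, whereas it was the lowest for the sum of the classical members. Of the 8 dendritic estimates, 4 were positive and 4 negative. The part of both lists in the results on the members was not tested. T and NK cell markers, which bear on Spn, summed to 115 to 134 against 119 to 133 CPM, with 1 of 8 tested genes higher (Cd2), and Cd3e had 2 to 6 counts per library. Endothelial markers, which bear on Ly6c1 and Ace, summed to 421 to 480 against 442 to 503 CPM, with Kdr higher and Cldn5 lower. The T and NK cell and the endothelial sums overlapped between the groups. Yet 7 of the 8 tested T and NK cell genes had positive estimates and 1 a negative one, with a median log2 fold change of 0.56. For 4 of these 8, every Myα5KO library lay above every control, beside 14.9% of all tested genes. The part of these genes in the result on Spn was not tested.

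Fibroblast markers summed to 1644 to 1920 against 1235 to 1600 CPM, with Postn called lower. Resident macrophage markers overlapped at 359 to 466 against 410 to 542 CPM. Vsig4 was called lower, whereas 4 of the 6 resident estimates were positive. Of the 10 macrophage markers, 9 had negative estimates and were not called, and Fcgr1 was called higher. The macrophage markers summed to 13610 to 13830 CPM in controls and 12840 to 13340 CPM in Myα5KO libraries, without overlap. Of the genes named singly for these cell types, Vsig4 passed the test with any 1 library left out. Kdr was lost with any library left out (edgeR adjusted p of 0.0696 to 0.182) and Cd2 with any except Myα5KO replicate 2 (0.0953 to 0.144). Cldn5 was lost without ITGA5 fl/fl replicate 2 or 3 or Myα5KO replicate 1 or 2 (0.0946 to 0.15), and Fcgr1 without any control or Myα5KO replicate 2 (0.0571 to 0.108). Cd209a was lost without ITGA5 fl/fl replicate 3 or Myα5KO replicate 2 or 3 (0.0721 to 0.109), and Postn without ITGA5 fl/fl replicate 1 or 3 or Myα5KO replicate 3 (0.0552 to 0.0802).

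**Figure D5:**
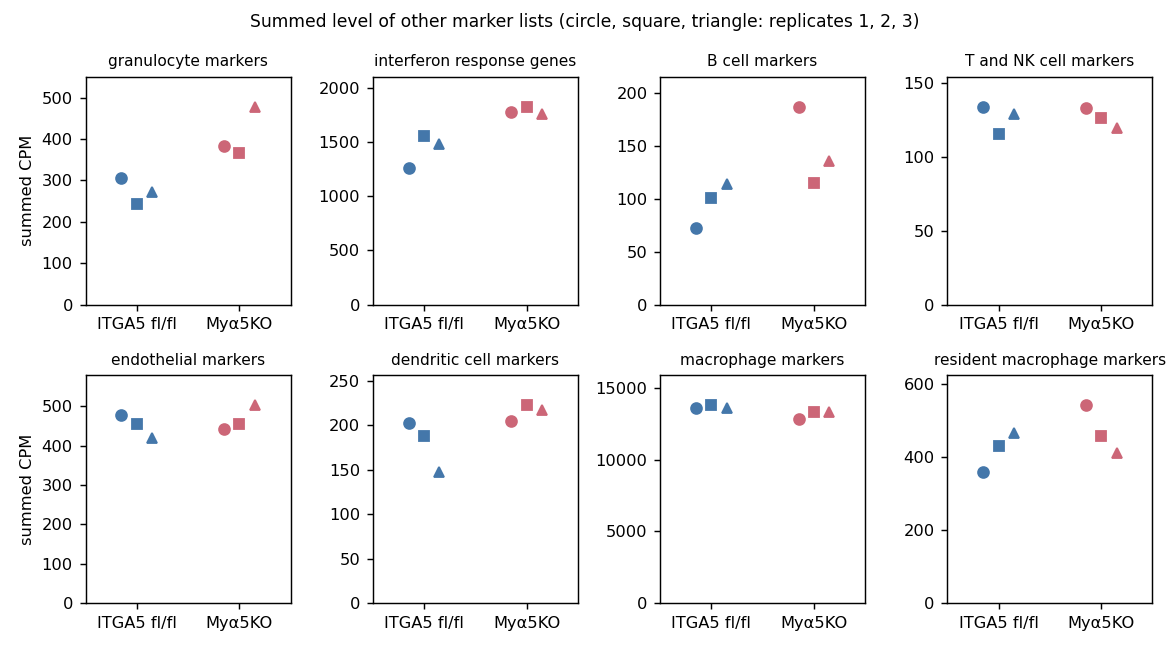
The summed CPM of 8 other marker lists is plotted for each of the 6 libraries, with each axis starting at 0. Myα5KO libraries lie above all controls for granulocyte, interferon response, B cell and dendritic cell lists, below them for the macrophage list, and overlap with them for T and NK cell, endothelial and resident macrophage lists.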

How the data were processed

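RNA-seq was performed on 6 libraries of sorted cardiac macrophages (polyadenylated RNA, 150-base paired-end reads). The authors removed low-quality reads, aligned the rest to GRCm38 and counted reads per gene. The submitters' processing notes name TopHat2 2.0.9, Cufflinks 2.1.1 and HTSeq 0.6.1. The deposited count table holds raw counts, and the deposited FPKM table holds counts per gene length and library depth. Treatment of multi-mapped reads and of strand is not given in the sources used here.

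Samples were grouped by title. The main test on counts was edgeR 4.0.16, quasi-likelihood (R 4.3.3; TMM scaling; default filter, minimum count 10, minimum total count 15), Myα5KO against ITGA5 fl/fl, without covariates. P-values are two-sided, and the Benjamini-Hochberg adjustment covers all 14522 tested genes. A gene was called at an adjusted p of 0.05 or less. CPM use TMM factors, and values after ± are SD over 3 libraries or SE of a fold change. The edgeR p-values set the difference between the groups against the spread between these libraries, estimated for each gene with help from all genes. Counts come from amplified reads, so depth covers counting error only. No pair of libraries agreed within sampling noise.

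The 8 members and all gene lists were chosen with earlier results of these data known. Named genes are Itga5, Lyz2, the members, Ccr2, Chil3, Cx3cr1, Nr4a1 and Treml4, up to 4 called genes per direction with the largest change (mean of at least 20 counts) from the further monocyte and family lists, up to 2 from each other list with its defining markers, and the 3 genes most like each member. Ms4a3, Pou2f2, Cd79b, Mpo and Elane were named after their values were seen. A few genes that this rule names are not reported here. Alternatives were DESeq2 1.42.0, limma 3.58.1 (voom, and trend on log2(FPKM + 1) or log2(FPKM + 0.1) keeping genes that reach an FPKM of 1 in 3 or more libraries, or unfiltered), other scalings and filters, a replicate block, a threshold of 0.01, and each library left out in turn. Promoter windows came from RefSeq, and shared words from GENCODE transcripts. The scripts were tested on simulated data.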

Additional observations from a re-analysis of the deposited data

How the results depend on the processing

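Ly6c2, Ms4a4c and Spn passed the test in 16 of 17 alternatives each. The exception was limma on unfiltered log2(FPKM + 1), with log2 fold changes of 0.63, 0.56 and 0.46 (adjusted p = 0.102, 0.123 and 0.116). There 0 members were called, with 0 further classical and 0 further nonclassical genes in either direction. In all, 2 genes were higher and 8 lower. The cause was not tested. Library-size scaling called 5 members, adding Plac8 (0.56) and Ace (0.36), and 1212 higher beside 518 lower genes, where TMM gave 517 and 754. It put the median of all genes at 0.10 on the log2 scale, against 0.01 with TMM. Without a count filter 7 members were called, adding Ly6c1 (0.32), Plac8 (0.49), Hp (0.32) and Ace (0.28), and 798 genes were higher. In that fit the spread was shared by all genes (infinite degrees of freedom for Ly6c2, against 13.5 with the filter), so its calls take no account of the spread of each gene. At an adjusted p of 0.01, 1 further classical gene was higher and 3 were lower, and 128 genes were higher and 342 lower in all. On filtered log2(FPKM + 1) and log2(FPKM + 0.1), 1 further classical and 2 further nonclassical genes were higher, with 150 and 142 higher and 322 and 306 lower genes in all.

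With 1 library left out, 3 to 5 members, 1 to 4 further classical and 3 to 5 further nonclassical genes were higher, and 187 to 420 higher and 429 to 671 lower genes were called in all. The log2 fold changes ranged from 0.17 to 0.43 for Ly6c1, 0.28 to 0.68 for Plac8, 0.16 to 0.40 for Hp, 0.20 to 0.33 for Ace and -0.10 to 0.48 for Ifitm6, which was -0.10 without ITGA5 fl/fl replicate 1. Deviations of libraries with the same replicate number correlated at 0.0509, -0.0576 and 0.0434, so no strong shared effect was seen over all genes. Such correlations cannot exclude that the numbers pair the samples. The replicate block left 3 members called, with log2 fold changes of 0.72 for Ly6c2, 0.59 for Ms4a4c and 0.50 for Spn, and 2 further classical genes higher (464 higher and 717 lower in all). Ifitm6 had the fewest counts of the members, 78 to 223 per library, and a coefficient of variation of 41.0% among controls.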

Other observations

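The genes Ms4a3, Mpo and Elane were picked after their values were seen, and Cebpe, of the same granulocyte list as Mpo and Elane, did not pass the test, at 0.24 on the log2 scale (edgeR adjusted p = 0.669). Ms4a3, a marker of progenitors of monocytes and granulocytes, had 7, 0 and 9 counts in ITGA5 fl/fl and 30, 22 and 24 counts in Myα5KO libraries (log2 fold change 2.03 ± 0.55 SE; edgeR adjusted p = 0.0353). Mpo, the myeloperoxidase gene, had 84, 35 and 146 counts against 385, 221 and 195 counts (log2 fold change 1.41 ± 0.34 SE; edgeR adjusted p = 0.0228). Elane, the neutrophil elastase gene, had 45, 36 and 59 counts against 140, 91 and 82 counts (log2 fold change 0.97 ± 0.24 SE; edgeR adjusted p = 0.0237). The groups did not overlap for these genes. Ms4a3 was lost when any 1 library was left out (edgeR adjusted p of 0.0539 to 0.0822), Mpo without Myα5KO replicate 1 (0.0647), and Elane without ITGA5 fl/fl replicate 2 or Myα5KO replicate 1 (0.0822 to 0.0961).

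The alarmin genes S100a8 and S100a9, which classical monocytes and neutrophils both express, had log2 fold changes of 1.52 and 1.55 (edgeR adjusted p of 0.00669 and 0.0145). Their highest levels were in Myα5KO replicate 3, at 33.4 and 55.5 CPM. Of the members, Ly6c1, Ifitm6, Ace and Spn were also highest there, and Ly6c2, Plac8, Hp and Ms4a4c were highest in Myα5KO replicate 1. For Ly6c2 the levels in Myα5KO replicates 1 and 3 were close, at 26.3 and 25.9 CPM. S100a9 was lost without ITGA5 fl/fl replicate 2 (edgeR adjusted p = 0.0588).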
